A study of Mus musculus with 10 samples.

Results

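Internal peaks were defined as autosomal CUT&Tag peaks whose midpoint lay inside a protein-coding gene and more than 5 kb from both ends of every protein-coding gene, on the mm10 mouse genome. They numbered 134746 of the 427705 peaks in 6 deposited lists, of which 410642 were autosomal. The lists held 28122 internal peaks for NPM1 after infarction, 19401 for NPM1 in sham, 32358 for NPM1 with IL-4, 14539 for NPM1 in untreated cells, 17061 for H3K4me3 in knockout (KO) cells and 23265 for H3K4me3 in wild-type (WT) cells. The sequence in which a midpoint could be internal came to 815 Mb in 13174 genes. The rule used positions and no measured values.

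In CUT&Tag an antibody directs a transposase, which cuts and tags the DNA around the bound protein or mark. NPM1 was mapped in WT cardiac macrophages at day 3 after myocardial infarction and at day 3 after a sham operation, and in WT macrophages cultured from bone marrow (BMDM), in 50 ng/ml M-CSF over 7 days, that then received 20 ng/ml IL-4 over 12 hours or stayed untreated. H3K4me3 was mapped in Npm1-knockout and in WT cardiac macrophages, both at day 3 after infarction. The series has 10 libraries, 1 per group, and 4 of them were not analysed here, namely those of H3K4me3 and of a K5 target from WT and KO BMDM with IL-4. The design text calls the knockout mice Npm1-cKO, a conditional knockout, and the sources used here do not name the cell type in which Npm1 is deleted. A peak list does not show whether Npm1 was lost. With a single library behind each list, differences between lists could not be set against replicate spread, and p-values were left out. Background pileup over the genome, a measure of depth, was 3.03 reads per position for infarct, 1.29 for sham, 4.18 for IL-4, 1.31 for untreated, 2.49 for KO and 2.92 for WT. Lower depth yields fewer calls, so a missing peak is one not called at the depth of its list. As a check of the labelled cell type, the start sites of 8 macrophage genes (Cd68, Mertk, Fcgr1, Itgam, Cx3cr1, Lyz2, C1qb and C1qc) were searched within 1 kb for H3K4me3 peaks. KO cells had one at all 8 and WT cells at 5. The same search found one at 7 of 14 T cell genes in KO cells and 7 in WT cells, at 2 of 6 B cell genes in each, and at 3 of 9 neutrophil genes in KO cells and 2 in WT cells. Among these were Csf3r of neutrophils, with −log10 q of 48.6 in KO cells and 1.68 in WT cells, Ebf1 of B cells, with 7.104 in KO cells and none in WT cells, and Fcer2a of B cells, with none in KO cells and 5.70 in WT cells. The start sites of the T cell receptor complex genes Cd3d, Cd3e and Cd3g, of Cd79a of B cells and of S100a9 of neutrophils had none in either H3K4me3 list. S100a8, the partner of S100a9, had one in both, with −log10 q of 58.8 in KO cells and 3.61 in WT cells. For comparison, 10438 genes had internal sequence and a known strand. Of these, 7323 had H3K4me3 within 1 kb of the start in KO cells and 6661 in WT cells. The counts for cell type genes thus do not settle which cells were present. The part of other leukocytes in the results was not tested.

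The body of a long gene holds introns in which enhancers and alternative promoters lie. An alternative promoter starts a shorter transcript from within the gene, and where it is active its nucleosomes carry H3K4me3, as those of the outer promoter do. Many such promoters are rich in CpG dinucleotides and in binding sites for Sp and KLF factors, while enhancers carry little H3K4me3. NPM1 is a histone chaperone that shuttles between nucleolus, nucleoplasm and cytoplasm.

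The RefSeq promoter table (GRCm38.p6, the assembly that mm10 names) held 4154 transcription starts in internal sequence, 2053 of them on 1521 protein-coding genes and the rest on non-coding genes. Windows of 250 bp on either side of these starts merged into 3742 internal start regions. The 250 bases before 6 of these starts are shown because they span the combinations of NPM1 and H3K4me3 found, and CpG dinucleotides are in capitals. The Iffo2 (chr4:139574470-139574719, plus strand), Por (chr5:135688895-135689144, plus strand) and Iqgap1 (chr7:80803332-80803581, minus strand) starts have the highest infarct NPM1 peaks among starts that also carry WT H3K4me3, and hold 17, 21 and 22 CpG. The Lmna start (chr3:88503353-88503602, minus strand) carries both but holds 1 CpG. The Mef2c start (chr13:83523406-83523655, plus strand) carries H3K4me3 in both genotypes and no NPM1 peak. The Trak1 start (chr9:121382544-121382793, plus strand) carries NPM1 after infarction and with IL-4 and no H3K4me3 peak. Sequences run 5′ to 3′ on the strand of the gene.
Iffo2: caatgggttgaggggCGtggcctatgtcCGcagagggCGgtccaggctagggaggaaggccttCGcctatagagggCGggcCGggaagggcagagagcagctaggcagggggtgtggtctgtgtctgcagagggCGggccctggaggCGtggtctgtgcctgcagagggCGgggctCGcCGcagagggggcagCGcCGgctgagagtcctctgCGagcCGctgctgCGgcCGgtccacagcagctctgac
Por: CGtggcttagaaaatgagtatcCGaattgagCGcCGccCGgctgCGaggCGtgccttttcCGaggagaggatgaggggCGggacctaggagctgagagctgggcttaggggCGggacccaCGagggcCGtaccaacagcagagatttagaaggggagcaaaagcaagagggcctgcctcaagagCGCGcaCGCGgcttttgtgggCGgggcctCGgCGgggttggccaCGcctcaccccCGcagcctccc
Iqgap1: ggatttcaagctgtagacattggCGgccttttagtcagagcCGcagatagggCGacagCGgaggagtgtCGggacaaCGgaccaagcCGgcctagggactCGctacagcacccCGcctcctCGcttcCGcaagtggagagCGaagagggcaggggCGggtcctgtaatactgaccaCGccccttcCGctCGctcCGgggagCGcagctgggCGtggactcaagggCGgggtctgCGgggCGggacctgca
Lmna: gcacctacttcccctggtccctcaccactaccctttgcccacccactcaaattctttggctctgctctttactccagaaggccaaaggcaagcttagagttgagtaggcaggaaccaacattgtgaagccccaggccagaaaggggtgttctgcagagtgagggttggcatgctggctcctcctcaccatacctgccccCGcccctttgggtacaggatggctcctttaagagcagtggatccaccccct
Mef2c: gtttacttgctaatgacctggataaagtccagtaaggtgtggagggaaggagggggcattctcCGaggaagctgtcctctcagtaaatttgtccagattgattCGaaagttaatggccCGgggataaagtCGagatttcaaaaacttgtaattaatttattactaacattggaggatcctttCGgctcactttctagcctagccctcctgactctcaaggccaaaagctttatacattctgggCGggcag
Trak1: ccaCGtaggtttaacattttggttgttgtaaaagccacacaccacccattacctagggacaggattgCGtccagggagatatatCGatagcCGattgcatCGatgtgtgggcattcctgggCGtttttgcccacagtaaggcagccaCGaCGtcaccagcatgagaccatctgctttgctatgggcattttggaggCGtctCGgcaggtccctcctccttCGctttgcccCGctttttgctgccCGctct

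Internal peaks made up a similar part of every list, 35.6% of autosomal peaks after infarction, 34.6% in sham, 32.4% with IL-4, 28.4% untreated, 32.8% in KO and 32.1% in WT, and internal sequence is 33.4% of the autosomal span. Density differed more. There were 34.5 internal peaks per Mb after infarction, against 23.8 in sham. There were 39.7 per Mb with IL-4, against 17.8 in untreated BMDM. H3K4me3 had 20.9 per Mb in KO cells and 28.5 in WT cells. For H3K4me3, internal density was far below that within 5 kb of gene ends (73.9 per Mb in KO and 80.7 in WT) and above that outside genes (9.26 and 18.4). NPM1 after infarction and with IL-4 had the same order, with 34.5 internal against 74.6 at gene ends and 21.1 outside after infarction. In sham cells the classes lay close together (23.8, 27.3 and 21.4 per Mb), and in untreated BMDM the order ran the other way, with 17.8 internal, 14.4 at gene ends and 24.5 outside.

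**Figure D1:**
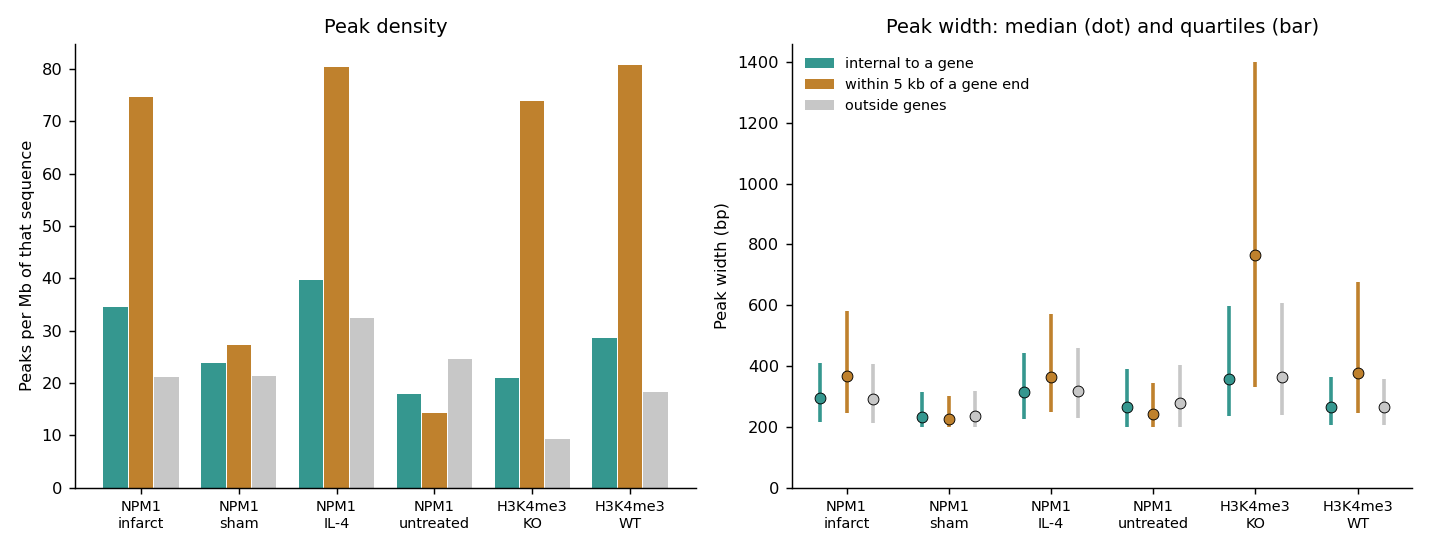
Left, peaks per Mb of internal, gene-end and outside sequence in each of the 6 lists. Right, peak width in bp as median (dot) and quartiles (bar) for the same classes. Internal density is below gene-end density in every list but that of untreated BMDM, and KO gene-end peaks are the widest.

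Internal peaks were narrow, and about as wide as peaks outside genes. Their median width was 296 bp after infarction, 232 bp in sham, 314 bp with IL-4, 264 bp untreated, 359 bp in KO and 267 bp in WT. Outside genes the medians were 293, 236, 319, 278, 365 and 264 bp in the same order. In sham and untreated cells gene-end peaks were narrower than internal ones, at 227 and 241 bp. The largest width contrast between classes was in KO cells, with 359 bp internal against 765 bp at gene ends, and 10.5% of internal KO peaks reached 1000 bp against 1.43% of internal WT peaks. Most internal peaks were also weak. A deposited −log10 q of 5 or more was reached by 12.4% after infarction, 11.4% in sham, 19.3% with IL-4, 10.7% untreated, 41.7% in KO and 13.4% in WT. Outside genes the shares were 12.4%, 10.2%, 19.4%, 9.05%, 45.8% and 12.3% in the same order. At gene ends they were 29.4%, 7.54%, 32.0%, 8.21%, 68.8% and 42.2%. At the 5 kb limit there was no step after infarction: 1341 peaks lay 5 to 6 kb from the nearest end and 1387 lay 4 to 5 kb from it, with median widths of 300 bp on both sides.

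Internal peak density differed with distance from the gene start. The bins pool all genes, and only long genes reach beyond 100 kb. Gene length and place within a gene were therefore not separated. For the 10438 genes whose strand the promoter table gave, density was set against each list's own internal average. In KO cells H3K4me3 was at 2.28 times the average 5 to 10 kb into the gene and at 0.39 beyond 100 kb. In WT cells the same bins were at 1.62 and 0.68. NPM1 after infarction had 1.54 and 0.64, sham had 1.16 and 0.87, IL-4 had 1.44 and 0.73, and untreated BMDM had 0.81 and 1.11. Untreated BMDM was thus the only list of the 6 with fewer internal peaks near the start than far from it.

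**Figure D2:**
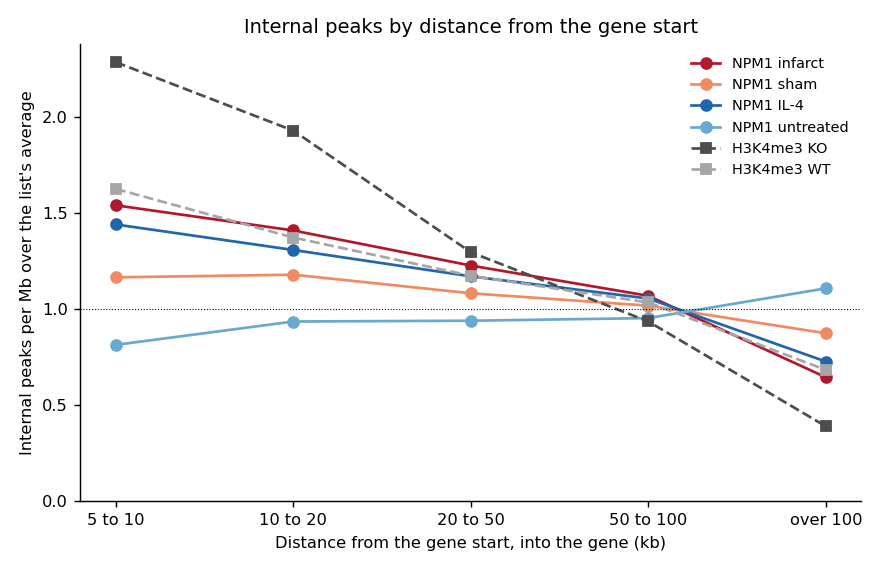
Internal peak density in 5 bins of distance from the gene start (kb), each over the list's internal average, for the 6 lists. The KO line falls steepest, and the untreated line runs the other way, at 0.81 near the start and 1.11 beyond 100 kb.

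Genes whose own start carried WT H3K4me3 within 1 kb, 6661 of the 10438, held more internal NPM1 after infarction, with 42.2 peaks per Mb against 26.7 in the 3777 genes without the mark. With IL-4 the densities were 44.9 and 34.1, and in sham they were 24.3 and 23.1. In untreated BMDM they were 14.8 in marked genes and 20.7 in unmarked ones. The mark comes from infarct cardiac macrophages, so for the sham and BMDM lists it is that of other cells. Marked genes had a median of 21.7 kb of internal sequence against 24.4 kb. In total they held 332 Mb and the fewer unmarked genes 307 Mb, so unmarked genes were longer on average. These densities pool bases over genes, and the part of gene length in them was not tested.

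Sharing of internal peaks between lists was partial. Of internal NPM1 peaks after infarction, 20.5% overlapped a sham peak by 1 bp or more (95% Wilson interval 20.0% to 20.9%, counting error only), and over all autosomal infarct peaks the share was 20.2%. Of internal sham peaks, 30.2% overlapped an infarct peak, against 29.1% of all sham peaks. Internal peaks were therefore shared about as often as peaks in general for this pair. With infarct summits scaled to the sham background pileup and those no longer reaching the call left out, the 2 shares were 23.6% and 26.6%.

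In BMDM, 18.5% of internal IL-4 peaks overlapped an untreated peak and 42.5% of internal untreated peaks overlapped an IL-4 peak. The shares over all autosomal peaks were 21.4% and 42.9%. With IL-4 summits scaled in the same way to the untreated background, the internal shares came to 24.7% and 34.8%. Across the 2 stimulated settings, 43.7% of internal infarct peaks overlapped an IL-4 peak and 37.6% of internal IL-4 peaks an infarct peak, against 50.8% and 39.7% over all autosomal peaks. Internal infarct peaks thus overlapped the deep list from cultured cells more often than the shallow sham list from the heart, and the part of depth in that order was not tested at matched depth. Sham and untreated, the 2 shallow lists, shared 18.2% of internal sham peaks and 24.01% of internal untreated peaks, against 20.3% and 21.8% over all peaks.

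For H3K4me3, 37.3% of internal KO peaks overlapped a WT peak and 29.7% of internal WT peaks overlapped a KO peak. These are below the shares over all autosomal peaks, 47.9% and 41.1%. Gene-end peaks were shared more, 61.0% of those in KO cells and 72.3% of those in WT cells. Which list had the larger internal share depended on the threshold. With both lists cut to −log10 q of 5 or more, 24.2% of internal KO peaks and 57.9% of internal WT peaks were shared. A peak that overlapped only a weaker one counts there as not shared. With overlapping peaks of any height counted, 4048 of the 7118 internal KO peaks at 5 or more were shared. For internal WT peaks these were 2184 of 3111. Of the internal KO peaks that were shared, 69.9% were wider than the WT peak they overlapped.

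**Figure D3:**
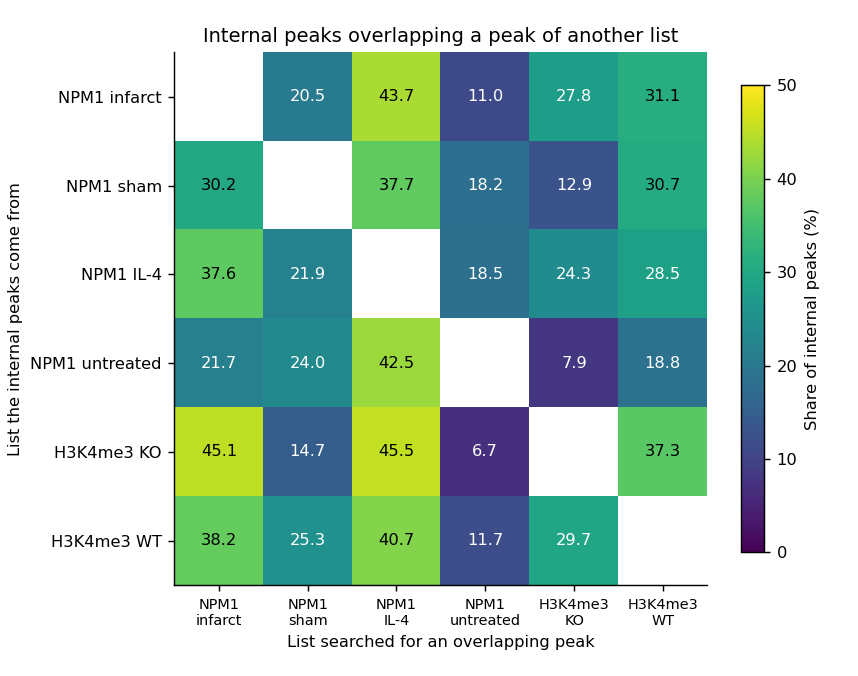
Share (%) of the internal peaks of the list in each row that overlap a peak of the list in each column by 1 bp or more. The highest shares link KO H3K4me3 with the infarct and IL-4 NPM1 lists (45.1% and 45.5%), and the lowest links KO H3K4me3 with untreated NPM1 (6.73%).

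Joined over the 6 lists, internal peaks formed 81250 separate regions. Of these 54353, or 66.9%, came from 1 list and 844, or 1.04%, from all 6. Infarct NPM1 peaks found in no other list had a median width of 241 bp and those in all 6 lists one of 634 bp. The most frequent pattern of 4 lists was infarct NPM1, IL-4 NPM1, KO H3K4me3 and WT H3K4me3 together, in 2135 regions.

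Internal NPM1 and H3K4me3 were set side by side to ask which internal NPM1 peaks lie on marked chromatin. After infarction a WT H3K4me3 peak overlapped 31.1% of internal NPM1 peaks, against 38.8% of all autosomal infarct NPM1 peaks. The shares for the other NPM1 lists, again with the mark of infarct WT cells, were 30.7% in sham, 28.5% with IL-4 and 18.8% untreated, against 29.5%, 32.5% and 16.1% of all autosomal peaks of those lists. Infarct NPM1 peaks with the mark had a median width of 391 bp and those without it one of 266 bp. The share with the mark grew with peak height. It was 17.9% of infarct peaks with −log10 q under 2, 34.9% from 2 to 5, 69.8% from 5 to 10, 84.6% from 10 to 20 and 96.6% of the 354 peaks at 20 or more. The same climb was present in sham, with 17.2% under 2 and 99.3% of the 282 peaks at 20 or more. Regions called in all 6 lists were 49.4% of the highest infarct class and 77.3% of the highest sham class, and their part in the climb was not tested.

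Annotated internal promoters separated the NPM1 lists more sharply than overall counts did. NPM1 lay on 17.5% of the 3742 internal start regions after infarction (95% Wilson interval 16.3% to 18.7%) and on 2.24% in sham (1.82% to 2.77%). The share of all internal positions with such a peak within 250 bp was 2.91% after infarction and 1.85% in sham. With IL-4 16.4% of start regions had NPM1, against 3.45% of positions, and in untreated BMDM 1.47% had it, equal to the 1.47% of positions. H3K4me3 lay on 26.3% of start regions in KO cells and 19.6% in WT cells, against 2.04% and 2.32% of positions. Starts of protein-coding transcripts were occupied more often than those of non-coding ones, at 26.5% and 8.25% for infarct NPM1, 41.6% and 10.8% for KO H3K4me3, and 31.7% and 7.34% for WT H3K4me3. In sham cells there was no such gap, with 2.22% and 2.27%. The size of the difference between NPM1 lists depended on the window and the threshold, in alternatives chosen after seeing the data. Within 1 kb of a start the shares were 24.5% after infarction and 6.56% in sham, and 23.5% with IL-4 and 3.63% untreated. With peaks of −log10 q of 5 or more they were 7.38% and 0.187%, and 8.12% and 0.16%.

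NPM1 at internal starts went with the mark. Of the 735 start regions with WT H3K4me3, 491 (66.8%) had infarct NPM1, against 163 (5.42%) of the 3007 without it. With IL-4 the shares were 63.8% and 4.82%. In sham they were 5.17% and 1.53%, and in untreated BMDM 3.95% and 0.86%. Of all start regions, 37 had NPM1 both after infarction and in sham, 617 after infarction only and 47 in sham only. In BMDM 33 had it with and without IL-4, 581 with IL-4 only and 22 untreated only. The infarct and IL-4 lists shared 472 of these start regions, with 182 in the infarct list only and 142 in the IL-4 list only. The part of depth in these counts was not tested.

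**Figure D4:**
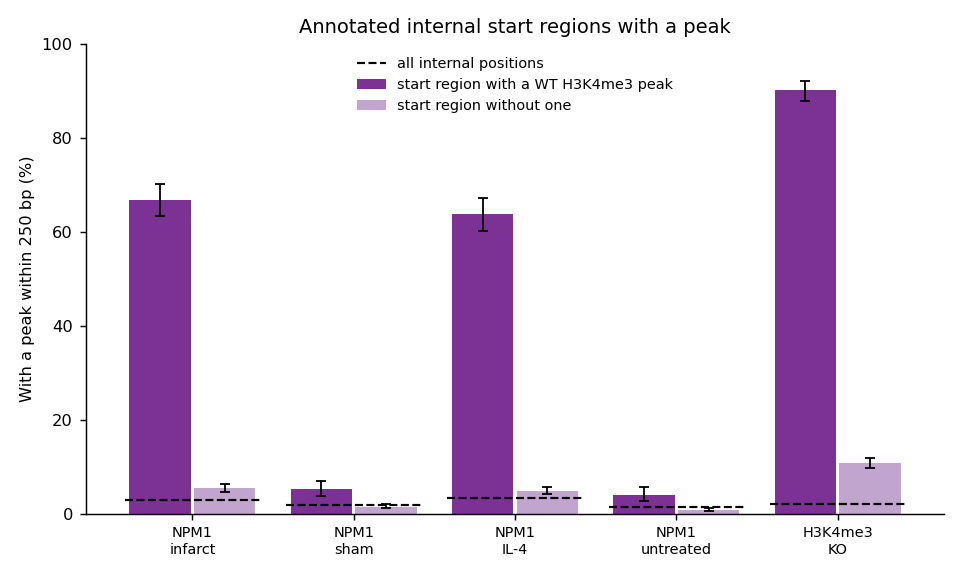
Share (%) of internal start regions with a peak within 250 bp, for regions with a WT H3K4me3 peak (dark) and without one (light), with 95% Wilson intervals. Dashed lines give the share of all internal positions. Infarct and IL-4 NPM1 reach 66.8% and 63.8% of marked regions, while sham and untreated stay at 5.17% and 3.95%.

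Sequence before the start differed between these sets. In start regions with both infarct NPM1 and WT H3K4me3, the 250 bases before the start had a median GC content of 60.4% and a median ratio of observed to expected CpG of 0.63 (quartiles 0.38 and 0.84). With H3K4me3 only (244 regions) the medians were 54.8% and 0.43, with NPM1 only (163 regions) 51.6% and 0.23, and with neither (2844 regions) 48.0% and 0.23. Regions with NPM1 but no WT mark thus had the CpG content of regions with neither. Only the WT mark was used for these sets. Of the 323 regions marked in KO cells only, 74 had infarct NPM1 and count as NPM1 only, and the rest count as neither. GGGCGG, the core of Sp and KLF sites, was present on either strand in 54.0% of regions with both, 41.8% with H3K4me3 only, 14.1% with NPM1 only and 11.4% with neither, against 32.7% of the 32817 promoters of the whole table. GAGGAAGT, a sequence bound by PU.1, was present in 3.46%, 2.46%, 3.68% and 2.22%, against 2.44% of all promoters. TGANTCA, bound by AP-1, was present in 7.54%, 5.33%, 10.4% and 7.95%, against 6.75%. CACGTG, the E-box, was present in 5.91%, 4.92%, 4.91% and 4.01%, against 6.02%. These motifs share no letters that would make one contain another, and a match is a description of letters only.

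Iffo2, which encodes an intermediate filament family member, had the highest infarct NPM1 peak on a marked internal start. It spanned 758 bp and reached 11.2-fold enrichment, at −log10 q 77.3, after infarction, and none was called in sham. With IL-4 the −log10 q was 86.5, and in untreated BMDM 1.40. H3K4me3 there spanned 1788 bp in KO cells and 657 bp in WT cells, with −log10 q of 173 and 44.5. The printed Iffo2 sequence holds 17 CpG and GGGCGG, and the infarct and IL-4 NPM1 peaks and both H3K4me3 peaks lie over the start.

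Por, the reductase that feeds electrons to cytochrome P450 enzymes, had infarct NPM1 with −log10 q of 55.6, none in sham, 82.6 with IL-4 and 0.85 untreated. Its H3K4me3 peak was 2058 bp wide in KO cells and 1140 bp in WT cells. Iqgap1, a scaffold of the actin cytoskeleton, had infarct NPM1 at 49.7, sham at 1.41, IL-4 at 35.9 and no untreated peak, on the −log10 q scale. At all 3 of these starts NPM1 was high in the infarct and IL-4 lists and low or not called in the sham and untreated lists.

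Lmna, the gene of the nuclear lamins A and C, had a CpG-poor start with both signals. Its NPM1 −log10 q was 38.1 after infarction, with no sham peak, 55.2 with IL-4 and 0.85 untreated, at a CpG ratio of 0.052. Hif1a, the oxygen-sensing transcription factor, had an internal start with infarct NPM1 at 29.95, none in sham, IL-4 at 23.1 and untreated at 1.40. Its H3K4me3 −log10 q was 142 in KO cells and 13.6 in WT cells, with widths of 910 bp and 651 bp. Sgk1, a kinase induced by serum and glucocorticoids, had infarct NPM1 at 38.3 and IL-4 NPM1 at 37.1 with no peak in sham or untreated cells. Nktr, Tef, Sh3tc1, Rps6ka2, Tnrc18, Mga and Sp2 followed Iffo2, Por and Iqgap1 by infarct NPM1 height, which makes 10 genes in all, with −log10 q from 39.8 at Sp2 to 49.1 at Nktr. Of these 7, the Tef start alone had a sham peak, at 0.86. Hdac4, a class II histone deacetylase, and Stag1, a cohesin subunit, had internal starts at 33.4 and 29.99 after infarction and none in sham.

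Of the 2684 start regions with no H3K4me3 in either genotype, 89 (3.32%) had infarct NPM1. This is near the 2.91% of all internal positions with such a peak within 250 bp. The highest after infarction were Bach2, a repressor known from lymphocytes, with −log10 q of 5.38 and no peak in any other list, and Trak1, an adaptor that moves mitochondria along microtubules, with 4.72 after infarction and 9.83 with IL-4.

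H3K4me3 at internal starts was compared between genotypes to ask whether loss of Npm1 goes with a different mark there. Both genotypes had it at 663 start regions, KO cells alone at 323 and WT cells alone at 72. The KO list also had more marked gene starts in general. Of 10438 genes with internal sequence, 7323 had the mark within 1 kb of the start in KO cells and 6661 in WT cells. Of gene-end peaks, 68.8% in KO and 42.2% in WT reached −log10 q of 5. Whether the KO-only excess is particular to internal starts was not tested. Where both had it, the median width was 1345 bp in KO cells and 579 bp in WT cells, and the KO peak was the wider at 644 and the narrower at 17. The KO list was also wider away from starts, with 347 bp for internal peaks off start regions against 265 bp in WT, and at gene ends, so a greater width is not limited to internal starts. Infarct NPM1 of WT cells lay on 71.5% of start regions marked in both genotypes, 22.9% of those marked in KO cells only, 23.6% of those in WT cells only and 3.32% of those in neither.

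The KO-only start regions with the highest −log10 q were Crybg1 (131), Gata3 (73.1), Satb1 (66.1), Pak1 (62.8), Phactr1 (54.8), Olfm1 (54.5), Septin9 (52.6) and Ubtf (50.9). Gata3 and Satb1 are transcription factors known from T cells, and WT cells had H3K4me3 within 1 kb of an annotated start of both genes, outside the 250 bp window at Gata3, with −log10 q of 12.3 at Gata3 and 8.02 at Satb1. Of 14 T cell genes with an annotated start, a list written after these peaks were seen, 7 had a start-site H3K4me3 peak in KO cells and 7 in WT cells, and 5 and 2 of them had −log10 q of 5 or more. Lck, the T cell receptor kinase, had 33.9 in KO cells and 1.69 in WT cells, and Tcf7 had 14.5 and 0.87. No T cell was counted here, and the part of T cells in the KO-only starts was not tested. Ubtf encodes UBF, which drives ribosomal RNA gene transcription, and its internal KO peak spanned 3283 bp. Septin9 had 3219 bp in KO cells, and with IL-4 an NPM1 peak of 622 bp.

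Among start regions of the listed macrophage genes, Runx1, a transcription factor of blood cells, carried both signals at its internal CpG-rich start. NPM1 −log10 q there was 16.1 after infarction, with no sham peak, 16.9 with IL-4 and no untreated peak, and H3K4me3 was 85.0 in KO cells and 28.3 in WT cells. Mef2c, whose sequence is printed, had H3K4me3 of 2554 bp in KO cells and 647 bp in WT cells and no NPM1 peak there in any list. Tbxas1, thromboxane synthase, had infarct NPM1 at 4.79, IL-4 NPM1 at 7.06, KO H3K4me3 at 73.4 and WT H3K4me3 at 2.85. Syk, the kinase downstream of Fc receptors and C-type lectins, had 2.07 for infarct NPM1 and none in the other NPM1 lists, with H3K4me3 of 1282 bp in KO cells and 306 bp in WT cells. Pdpk1 and Sesn1 of the mTORC1 list, a kinase that activates AKT and a stress-induced inhibitor of mTORC1, had infarct NPM1 at 10.3 and 8.51 and IL-4 NPM1 at 24.5 and 7.31, with none in sham or untreated cells. Dpy30, a core subunit of the H3K4 methyltransferases, had infarct NPM1 at 6.87 and H3K4me3 at 243 in KO cells and 37.8 in WT cells.

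Internal NPM1 peaks without WT H3K4me3 were seldom high. The highest after infarction lay in Myo5a, a vesicle motor, where it was 1143 bp wide and 8.46-fold enriched, at −log10 q 37.5. The same place had 52.0 with IL-4, 14.0 for H3K4me3 in KO cells, and no peak in sham or untreated cells. Pitpnc1, Dagla, Rapgef4 and Lhfpl2 had the same pattern, with infarct −log10 q of 34.4, 30.7, 26.8 and 25.8 and a peak in the IL-4 and KO lists but not in sham, untreated or WT. Snx29, at 37.3, had peaks in 5 lists and none in WT. All 6 of these highest places carried H3K4me3 in the KO list. So did 97.7% of all internal infarct peaks with −log10 q of 20 or more, so this is not particular to them.

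Between infarct and sham, 16085 internal infarct peaks had no sham peak within 5 kb, 1453 of them with −log10 q of 5 or more. In the other direction 8433 sham peaks had no infarct peak within 5 kb, 288 of them at 5 or more. Here and for the pairs in the next paragraphs, such counts were made for internal peaks only. They do not show whether internal peaks differ from all autosomal peaks. The highest on the infarct side were Phf19, a Polycomb accessory protein (112), Iffo2 (77.3), Por (55.6), Zdhhc18, a palmitoyl transferase (51.0), Nktr (49.1) and Adssl1, an enzyme of AMP synthesis (48.5). All 6 also had IL-4 NPM1 and H3K4me3 in both genotypes. The highest on the sham side were 2 peaks in Plcb1, a phospholipase C (21.3 and 19.8), and peaks in Dstyk (18.8), Nos1ap (18.8), Slc8a1, the cardiac sodium-calcium exchanger (17.9), and Arhgap15 (16.3). Of these, the Dstyk peak was in no other list and the other 5 had a peak in the WT H3K4me3 and IL-4 lists and none in the KO list.

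Between IL-4 and untreated BMDM, 21989 internal IL-4 peaks had no untreated peak within 5 kb, 3319 of them with −log10 q of 5 or more, and 4969 untreated peaks had no IL-4 peak within 5 kb, 183 of them at 5 or more. The highest on the IL-4 side were Pacs1 (96.4), Senp7, a SUMO protease (90.6), Zdhhc18 (83.5), Impact, a translational regulator (78.9), Rnf169 (73.4) and Rab8b, a vesicle GTPase (68.1), and all 6 were also in the infarct, KO and WT lists. All but Zdhhc18 had a sham peak too, with −log10 q of 85.4 at Pacs1, 16.3 at Rnf169, 6.32 at Senp7, 1.97 at Rab8b and 1.41 at Impact. The Pacs1 fold was 23.0 in sham and 15.8 with IL-4. On the untreated side Tubgcp3 (25.6), Arhgef38 (19.6) and Rcor1 (15.9) were in no other list, and Grm3 (24.6), Wdfy1 (22.0) and Gria1 (15.0) were also in the WT list. Grm3 had a sham peak at 13.9 and an infarct peak at 3.33 as well, and Wdfy1 an infarct peak at 6.87.

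Between KO and WT H3K4me3, 5860 internal KO peaks had no WT peak within 5 kb, 1670 of them with −log10 q of 5 or more, and 12535 WT peaks had no KO peak within 5 kb, 779 of them at 5 or more. The highest on the KO side were Myo10, a filopodial myosin (63.1), Pak1, a kinase of actin remodelling (62.8), Trerf1 (62.0), Cdk5rap1 (60.1), Gins1 of the replicative helicase (58.3) and Baz1a, a nucleosome remodelling subunit (52.1), between 420 and 1083 bp wide. Myo10, Trerf1, Cdk5rap1 and Gins1 had no peak in any other list. The highest on the WT side were Grk5 (93.7), Plcl2 (26.3), Crybg3 (25.6), Maml2 (24.1) and Tgm4 (23.0), between 348 and 595 bp wide, and these 5 also had sham NPM1 peaks. Both sets are the highest few, chosen by height, and their widths overlap.

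The internal peaks with the highest −log10 q were the same places in list after list. A 404 bp infarct peak in Chl1, a neuronal adhesion gene, had a fold of 44.4, and at that place sham had 43.5, IL-4 44.2, untreated 47.1, KO 44.5 and WT 42.9. Folds in Ppp1r9a were 32.2 after infarction, 32.0 in sham, 34.0 with IL-4, 30.6 untreated, 33.6 in KO and 29.6 in WT. Flt1, Lama1, Gm525, Dop1b and Smo had peaks in all 6 lists too, with folds from 14.2 at Smo in KO cells to 39.8 at Flt1 in KO cells. At Chl1 and Ppp1r9a the fold thus moved little between antibodies, cell sources and genotypes. Such places were 2.93% of internal infarct peaks, 4.29% of sham, 2.57% of IL-4, 5.84% of untreated, 4.96% of KO and 3.60% of WT, counted as internal peaks overlapping all 5 other lists. Their cause was not tested, and no input or IgG library was used here.

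Genes were ranked by internal peaks per kb where they had 20 kb or more of internal sequence, which 7095 did. An internal peak was present in 76.7% of ranked genes after infarction, 70.6% in sham, 79.4% with IL-4, 53.7% untreated, 56.4% in KO and 72.9% in WT. Sfi1, a centrosomal gene on chromosome 11, was at or near the top of every list, with 27 peaks in 59.7 kb after infarction, 24 in sham, 27 with IL-4, 17 untreated, 27 in KO and 30 in WT. Sp110 and Sp140, interferon-inducible nuclear body genes on chromosome 1, overlap each other, and a gene that shared a counted peak with a denser one was passed over, so each list ranks 1 of them at most. Sp110 ranked after infarction, in sham, with IL-4 and in WT, and Sp140 in untreated BMDM. Sp140 had 13, 12, 17, 12, 6 and 12 peaks after infarction, in sham, with IL-4, untreated, in KO and in WT. Near-identical copies of Sfi1 and of the Sp100 family exist in the mouse genome, and the sources used here do not state how reads with several placements were handled, so these counts are uncertain. The ranking depended on the limit on length: of the 6 genes of each list, 1 to 3 were still among the 6 with a limit of 10 kb, and 1 or 2 with a limit of 50 kb. With peaks of q of 0.05 or less, 3 were kept after infarction, 3 in sham, 6 with IL-4, 2 untreated, 5 in KO and 3 in WT.

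Arap1, a regulator of small GTPases on chromosome 7, ranked in the infarct, IL-4 and WT lists. It had 18 internal peaks after infarction against 5 in sham, 16 with IL-4 against 0 untreated, and 13 in KO against 16 in WT. Syk, on chromosome 13, ranked in the KO list and had 15 after infarction against 0 in sham, 14 with IL-4 against 0 untreated, and 17 in KO against 8 in WT. Srgn, the proteoglycan serglycin of myeloid granules, ranked in the IL-4 and KO lists and had 4 against 0, 8 against 0 and 9 against 5 in the same pairs. P2ry6, a receptor for UDP that prompts phagocytosis, ranked in the IL-4 list and had 7 against 1, 9 against 0 and 5 against 7. Niban2 ranked in the KO list and had 10 against 4, 11 against 0 and 14 against 7. These genes were chosen for their density, so their counts are a description.

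**Figure D5:**
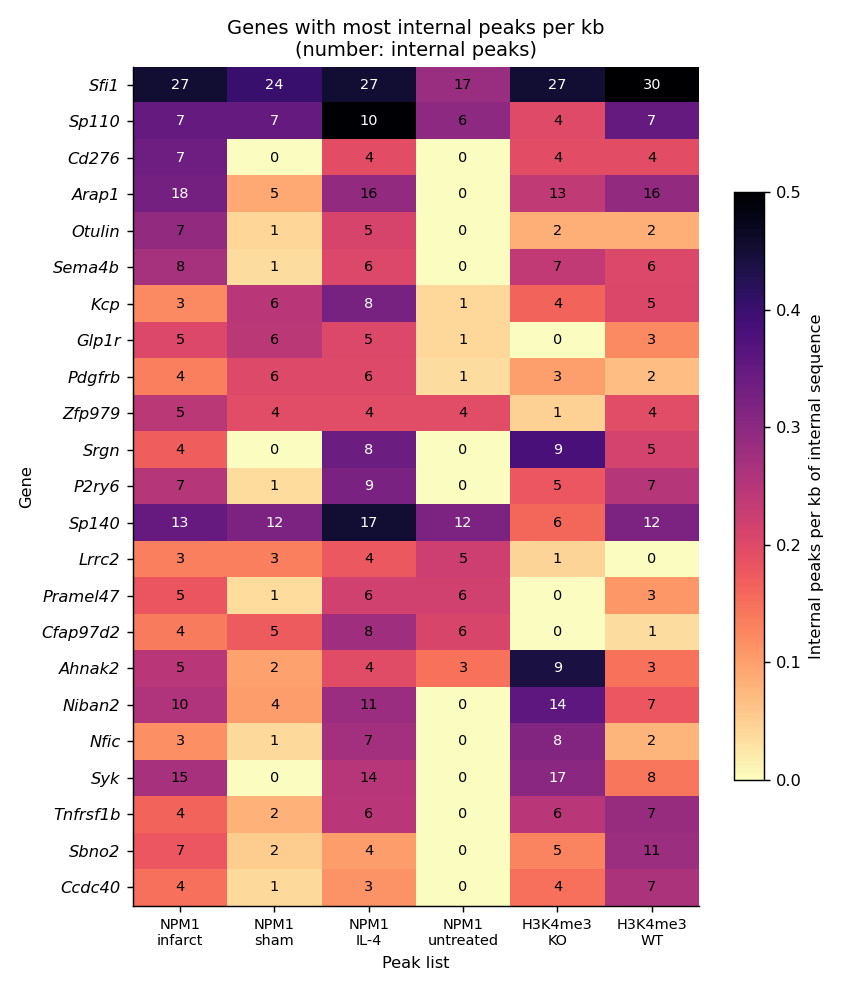
Internal peaks per kb (colour) and number of internal peaks (figures) in the 6 lists, for the genes that rank among the 6 densest of any list. Sfi1 is dense in every list, while Arap1, Syk and Srgn have 0 internal peaks in the untreated list.

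The sham and untreated rankings held other genes. Kcp, Glp1r, Pdgfrb and Zfp979 followed Sfi1 and Sp110 in sham, with 6, 6, 6 and 4 internal peaks. After infarction the same genes had 3, 5, 4 and 5. Lrrc2, Pramel47, Cfap97d2 and Zfp979 followed Sp140 and Sfi1 in untreated BMDM, with 5, 6, 6 and 4 peaks, and with IL-4 they had 4, 6, 8 and 4. Cd276, Otulin and Sema4b completed the infarct ranking with 7, 7 and 8 peaks, against 0, 1 and 1 in sham. Ahnak2 and Nfic completed the KO ranking with 9 and 8 peaks against 3 and 2 in WT, and Tnfrsf1b, Sbno2 and Ccdc40 had 6, 5 and 4 in KO against 7, 11 and 7 in WT, where they ranked.

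The 30 ranked genes of the long macrophage and myeloid list held 62.0 internal peaks per Mb after infarction and 16.8 in sham, which is 1.89 and 0.72 times the average of all ranked genes in the same list. With IL-4 they held 59.4 per Mb (1.56 times) and untreated 12.2 (0.68 times), and H3K4me3 had 50.5 in KO (2.71 times) and 41.4 in WT (1.52 times). An internal peak was present in 27 of the 30 genes after infarction against 21 in sham, 30 with IL-4 against 17 untreated, and 28 in KO against 30 in WT. The shares of all ranked genes given above, 70.6% in sham and 53.7% untreated, are near those of the list in these 2 lists. Runx1 had 25, 11, 30 and 2 NPM1 peaks after infarction, in sham, with IL-4 and untreated. Elmo1, an engulfment adaptor, had 31, 7, 21 and 2. Fyb, an adhesion adaptor, had 15, 4, 13 and 3.

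The IL-4 list had 10 ranked genes and 62.6 peaks per Mb after infarction (1.90 times the average), 19.0 in sham (0.81), 62.6 with IL-4 (1.64) and 6.799 untreated (0.38). Pparg, a lipid-sensing nuclear receptor of alternative activation, named after its values were seen, had 7 internal NPM1 peaks after infarction and 7 with IL-4, and 0 in sham and untreated cells. At 1 of them, chr6:115479304-115479637 in the IL-4 list, the −log10 q was 8.38 with IL-4 and 1.203 after infarction. Jak1, the kinase of the IL-4 receptor, had 6 against 1 and 7 against 0 in the 2 NPM1 pairs. Ptpn1, a phosphatase that acts on JAK kinases, had 9 against 2 and 6 against 0. Mrc1, the mannose receptor and a marker of IL-4-treated macrophages, had 3 against 1 and 5 against 3.

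The mTORC1 and TSC list, 24 ranked genes, had 59.6 per Mb after infarction (1.81 times) and 19.1 in sham (0.82). It had 51.0 with IL-4 (1.34) and 14.9 untreated (0.83), and 44.1 in both KO (2.36) and WT (1.63). The median gene had 39.4 per Mb after infarction and 39.4 with IL-4, against 31.1 and 34.2 over all ranked genes. In sham and untreated cells it had 7.80 and 5.69, against 20.7 and 8.45. For H3K4me3 it had 37.9 in KO and 56.1 in WT, against 9.14 and 24.7. Of the 112 infarct and 96 IL-4 peaks of the list, 40 and 30 lay in Rptor. Rptor, the scaffold raptor of mTORC1, had 40 internal NPM1 peaks after infarction against 10 in sham, and 30 with IL-4 against 4 untreated. Fnip2, a partner of folliculin, had 16 against 2 and 11 against 0. Tsc1, hamartin, had 5 against 1 and 3 against 0. One internal Tsc1 place, chr2:28681977-28683058 in the infarct list, had a peak in 5 lists, with −log10 q of 9.06 after infarction, 3.00 in sham, 15.3 with IL-4, 4.25 in KO and 6.32 in WT. Tsc2, tuberin, had 1 against 1 and 2 against 0, none with −log10 q of 5 or more. Mtor had 4 against 1 and 0 against 1, all weak, with the highest at 2.06 in sham. Kdm5b, an H3K4 demethylase, had 1 internal peak in all, after infarction, with −log10 q of 1.61. Npm1 has 1.64 kb of internal sequence and held no internal peak in any list.

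The H3K4 methylation enzymes, 12 ranked genes, had 41.2 per Mb after infarction (1.25 times) and 21.0 in sham (0.90), and 25.5 with IL-4 (0.67) and 9.74 untreated (0.54). The sham value rests on Smyd3, with 16 of 28 peaks, and the median over the genes was 42.2 per Mb after infarction and 2.30 in sham, against 31.1 and 20.7 over all ranked genes. Smyd3, the member with the most internal peaks, had 16 after infarction and 16 in sham, 12 with IL-4 and 10 untreated, and 6 in KO and 22 in WT. Kmt2a, an H3K4 methyltransferase, had 11 internal NPM1 peaks after infarction against 1 in sham, 7 with IL-4 against 0 untreated, and 0 H3K4me3 peaks in KO against 1 in WT. Kdm2b, a demethylase that binds CpG islands, had 11 against 6, 3 against 1, and 9 against 3. The remodelling and NPM1 partner list, 13 ranked genes, had 55.8 (1.70 times) after infarction and 11.8 (0.50) in sham, and 52.6 (1.38) with IL-4 and 9.65 (0.54) untreated. Gatad2a, a NuRD subunit, had 10 against 2 and 14 against 0, and Chd7, a remodeller, 13 against 5 and 10 against 3.

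The 14 ranked cardiomyocyte genes had 30.1 per Mb after infarction (0.92 times) and 25.2 in sham (1.08). Cacna1c, the cardiac calcium channel, had 21 against 10. Rbm20, a cardiac splicing factor, had 16 against 13, and Slc8a1 had 2 against 12. The 13 fibroblast genes had 17.6 (0.54) after infarction and 26.9 (1.15) in sham, with Col5a1 at 12 against 11 and Fbn1 at 2 against 5. The 11 endothelial genes had 48.1 (1.46) and 31.7 (1.36), with Erg at 21 against 12 and Vwf at 10 against 1. Untreated BMDM, a culture of macrophages, had 1.05 times the average for cardiomyocyte genes, 0.77 for fibroblast genes and 1.49 for endothelial genes. In sham the median gene had 33.2 per Mb for the cardiomyocyte list, 14.2 for the fibroblast list and 23.8 for the endothelial list, against 20.7 over all ranked genes. For fibroblast genes in sham the pooled value was thus above, and the median below, that of all ranked genes. After infarction the medians were 38.6, 0 and 30.4 for the same lists, against 31.1. There the pooled value was below and the median above for cardiomyocyte genes. For endothelial genes the pooled value was above and the median slightly below. Fewer macrophages in a preparation and less signal per macrophage cannot be told apart in these bulk libraries.

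The 30 long neuronal genes, whose expression was not measured here, had 6.46 internal NPM1 peaks per Mb after infarction (0.20 times the average) and 11.8 in sham (0.51). They had 14.6 with IL-4 (0.38) and 19.9 untreated (1.11). H3K4me3 had 0.805 in KO cells (0.043) and 6.84 in WT cells (0.25). Cntnap2 had 18 against 31 and 50 against 64 in the NPM1 pairs, and 2 against 15 in KO and WT. Csmd2 had 26 against 32, 34 against 23, and 3 against 31, and Csmd1 had 19 against 35, 30 against 44, and 0 against 17. The untreated list was the only one of the 6 with neuronal genes above and myeloid genes below the average. The KO list had the widest gap between the 2 groups.

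Genes known for alternative internal promoters, 31 ranked, had pooled densities of 0.81 times the average after infarction, 0.80 in sham, 0.89 with IL-4, 0.68 untreated, 1.08 in KO and 0.93 in WT. The median gene of the list was above that of all ranked genes, with 43.5 per Mb against 31.1 after infarction, 48.0 against 34.2 with IL-4, 27.2 against 9.14 in KO and 38.4 against 24.7 in WT, while in sham it had 20.2 against 20.7 and untreated 9.42 against 8.45. Pde4d, a long phosphodiesterase gene, had 20, 24, 42 and 24 NPM1 peaks after infarction, in sham, with IL-4 and untreated. Cux1 had 24, 7, 24 and 1 in the same order, and Rbfox1, a neuronal splicing factor gene, 14, 29, 20 and 22.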

How the data were processed

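NPM1 and H3K4me3 CUT&Tag peak lists of mouse macrophages were analysed, 1 library per group. The build was mm10 and the tools were MACS2 2.2.7.1, deepTools, Bowtie2 and bcl2fastq 2.17, per the submitters' processing notes. Tool settings, control libraries and duplicate handling: not given in the sources used here. For every peak the deposited lists give the authors' score, fold enrichment (a ratio of pileup to local background at the summit) and −log10 p and −log10 q values. These are the authors' values and were used only to describe, rank and filter peaks within a list. The smallest deposited −log10 p was close to 2 in every list, so many listed peaks are weak.

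Gene extents came from RefSeq (GRCm38.p6) and starts from the RefSeq promoter table, which is not complete. Coordinates are 1-based. A peak was shared where it overlapped another list's peak by 1 bp or more. Background pileup was solved from the deposited fold and p-value of each summit. Intervals are 95% Wilson intervals and cover counting error only. Classification and overlap counting were tested on simulated data. Python 3.11.15, numpy 2.4.6, pandas 2.3.3, scipy 1.17.1 and matplotlib 3.10.9 were used.

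Genes were named by rule: the 6 densest genes of each list with 20 kb or more of internal sequence and 3 or more peaks, the 6 highest peaks of each list and of each set without a peak within 5 kb in the paired list, the highest peaks with and without the mark, up to 4 members of each of 10 gene lists by number of internal peaks, and Npm1, Kdm5b, Tsc1, Tsc2 and Mtor. In the ranking, predicted genes and olfactory and vomeronasal receptors and genes sharing a counted peak with a denser gene were passed over. The genes named at internal starts, the cell marker genes and the remaining list members were chosen after their values were seen. Some genes that the rule names are not reported here. The members and lists were chosen with earlier results of these data known, and the cell marker lists were written after internal KO peaks were seen. Alternatives were a stricter q, another distance limit, a larger overlap, equal list lengths and a deeper list scaled to the background pileup of the shallower one, which matches that value and not depth in full.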

Additional observations from a re-analysis of the deposited data

How the results depend on the processing

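With 1 library per group, depth and peak height limit every comparison. With peaks of −log10 q of 5 or more, internal counts were 3493 after infarction, 2209 in sham, 6258 with IL-4, 1558 untreated, 7118 in KO and 3111 in WT, and median widths were 543, 428, 533, 483, 638 and 469 bp in that order. With a limit of 10 kb from gene ends the KO median width was 365 bp. For the overlap shares below, the stricter q was applied to both lists, so overlap with a weaker peak did not count. The share of internal infarct peaks overlapping sham was then 29.2%. It was 18.5% with an overlap of 50% of the shorter peak, 21.5% at 10 kb and 25.5% with lists of equal length. With infarct summits scaled to the sham background pileup, which leaves 21410 internal infarct peaks, it was 23.6%. For IL-4 peaks overlapping untreated these were 15.4%, 16.8%, 20.1%, 28.2% and 24.7%. For KO peaks overlapping WT the share was 24.2% at the stricter q, 35.2% at 50% overlap and 30.2% at equal length, and for infarct peaks overlapping IL-4 it was 77.5%, 40.3% and 42.7%. For sham peaks overlapping untreated it was 26.4%, 16.1%, 18.9% at 10 kb and 19.1% at equal length. Infarct peaks with WT H3K4me3 were 44.4% with both lists at the stricter q and 28.2% at 50% overlap. With WT peaks of any height counted, the share was 69.8% of infarct peaks with −log10 q from 5 to 10, and more above that. With the KO mark in place of the WT mark, 55.6% of marked start regions had infarct NPM1. The causes were not tested. No paired analysis was possible because each group is 1 library and no test was run.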
